A study of Mus musculus with 2 samples.

Results

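The iron handling genes examined here are 9 listed genes, found by symbol in both count matrices: *Fth1* and *Ftl1* (ferritin), *Slc40a1* (ferroportin), *Hmox1* and *Blvrb* (haem breakdown), *Hp* (haptoglobin), *Slc11a1* and *Tfrc* (iron transport and uptake) and *Ireb2* (iron regulatory protein). All 9, of 32285 listed genes, were detected in both libraries. They were chosen by name and not by a measured value. Single-cell RNA was counted in CD45+ Dapi- leukocytes sorted from brown adipose tissue (BAT), in 1 droplet library for each condition.

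Both groups were male C57Bl/6 mice with the floxed ATGL gene (*Pnpla2*) and AdipoQ-CreERT2, a tamoxifen-activated Cre recombinase under the adiponectin promoter, which is active in adipocytes. Control mice received vehicle, and mice of the AdipoΔ/Δ group received tamoxifen, on alternate days for 1 week. A rest of 2 weeks followed in both. Tamoxifen and the loss of ATGL therefore cannot be told apart here. The labels give an age of 16 weeks and the study's text a younger one, and neither says how many mice were pooled in a library. The sorted cells are leukocytes, and the adiponectin promoter is an adipocyte promoter, so the level of *Pnpla2* does not check the deletion. It was 37.1 CPM (33.6 to 40.9) in control and 42.2 CPM (38.5 to 46.1) in AdipoΔ/Δ leukocytes.

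Macrophages take up aged red cells, release iron from haem with haem oxygenase 1 (*Hmox1*), reduce the remaining biliverdin with biliverdin reductases (such as *Blvrb*), store iron in ferritin and return it to plasma through ferroportin. Haptoglobin binds free haemoglobin. Cells short of iron raise the transferrin receptor (*Tfrc*) and lower ferritin, because iron regulatory proteins bind a hairpin, the iron-responsive element, in the untranslated regions of these transcripts.

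The hairpins are shown because they mark the members on which this control is known to act. A search of the GRCm38 transcripts of GENCODE M21, on the sense strand, asked for a CAGTGN loop (last base not G) on a stem of 5 pairs above an unpaired C. It required at least 3 of 5 pairs below that base. In each line the loop is in capitals within 28 bases, written 5′ to 3′ in DNA letters.
*Fth1* 5′ untranslated region, chr19:9982733-9982760, plus strand: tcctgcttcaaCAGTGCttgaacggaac
*Ftl1* 5′ untranslated region, chr7:45459779-45459806, minus strand: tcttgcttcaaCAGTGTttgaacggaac
*Slc40a1* 5′ untranslated region, chr1:45925465-45925492, minus strand: aacttcagctaCAGTGTtagctaagttt
*Tfrc* 3′ untranslated region, chr16:32631220-32631247, plus strand: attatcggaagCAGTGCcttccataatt
*Tfrc* 3′ untranslated region, chr16:32631599-32631626, plus strand: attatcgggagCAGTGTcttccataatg
*Tfrc* 3′ untranslated region, chr16:32631664-32631691, plus strand: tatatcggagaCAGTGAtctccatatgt
*Tfrc* 3′ untranslated region, chr16:32631711-32631738, plus strand: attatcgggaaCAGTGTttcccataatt
The elements lie before the coding sequence in the 3 transcripts of storage and export and after it, 4 times, in *Tfrc*. The search matched 68 of 21901 coding genes (0.310%), 4 of them members. A match is a description of the sequence and not a measured site, and UMI counts measure transcript levels and not their translation.

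The kept cells numbered 2279 in the control library (median 3678 UMIs) and 2016 in the AdipoΔ/Δ library (median 3942 UMIs). Levels are the UMIs of a gene summed over a group of cells and scaled to 1000000 UMIs of that group (CPM). Intervals in parentheses are exact 95% intervals and cover counting error only, because there is 1 library for each condition and cells are not replicates. Names ending in "-like" stand for clusters matched to marker lists. Monocyte-like cells formed a Ly6C high cluster and 2 Ly6C low clusters, led by *Cd300e* and by *Gngt2*, and macrophage-like cells formed M2-like, matrix and lipid-associated clusters. The mean log2 ratio of the Ly6C low markers over all other cells was 3.51 in the cluster led by *Cd300e* but 0.73 in that led by *Gngt2*. The latter's leading genes held *Adgre4*, *Treml4* and *Ace* of this list and *Plac8* of the Ly6C high list. The paper also names Ly6C intermediate monocytes, and whether this cluster holds them was not tested.

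The control suspension held more red cell RNA. The 4 haemoglobin genes gave 11731 UMIs in kept control cells and 100 in kept AdipoΔ/Δ cells. Of the control UMIs, 11141 lay in 4 cells of the B cell-like and plasma cell-like clusters. Without these, haemoglobin stood at 55.0 CPM in control and 8.84 CPM in AdipoΔ/Δ cells. Barcodes made mostly of haemoglobin held ferritin and *Blvrb* but not the other members. In 30 control barcodes with over 50% haemoglobin, 129668 haemoglobin UMIs came with 57 UMIs of *Fth1*, 104 of *Ftl1* and 10 of *Blvrb*, and the other 6 members were at 0. In 9 such AdipoΔ/Δ barcodes, 33878 haemoglobin UMIs came with 6 UMIs of *Fth1* and 58 of *Ftl1*, and the other 7 were at 0. Of their UMIs outside haemoglobin, *Ftl1* made 7727 CPM in control and 34259 CPM in AdipoΔ/Δ mice. Leaving out cells with 3 or more haemoglobin UMIs, which were only 24 control and 4 AdipoΔ/Δ cells, changed no count of members reported below. Of the barcodes, 4 occurred in both libraries.

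Several members were spread over the classes less evenly than the UMIs of all genes summed. Shares of other single genes of like level were not computed. Whether iron handling genes differ from other genes in this was therefore not tested. In the control library, neutrophil-like cells held 9.92% of all UMIs but 91.8% of the *Slc40a1* UMIs and 39.3% of the *Hp* UMIs. Monocyte-like cells held 38.7% of all UMIs, 70.1% of the *Hmox1* UMIs and 64.3% of the *Slc11a1* UMIs. In the AdipoΔ/Δ library, macrophage-like cells held 30.8% of all UMIs and most of the UMIs of *Fth1* (57.7%), *Ftl1* (63.4%), *Blvrb* (71.2%), *Slc11a1* (66.9%) and *Tfrc* (55.0%). Macrophage-like cells of the control library held only 4.95% of all UMIs, and 9.01% of the *Fth1* UMIs. *Ireb2* followed the distribution of all UMIs most closely, with 41.3% of its control UMIs in monocyte-like cells.

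**Figure D1:**
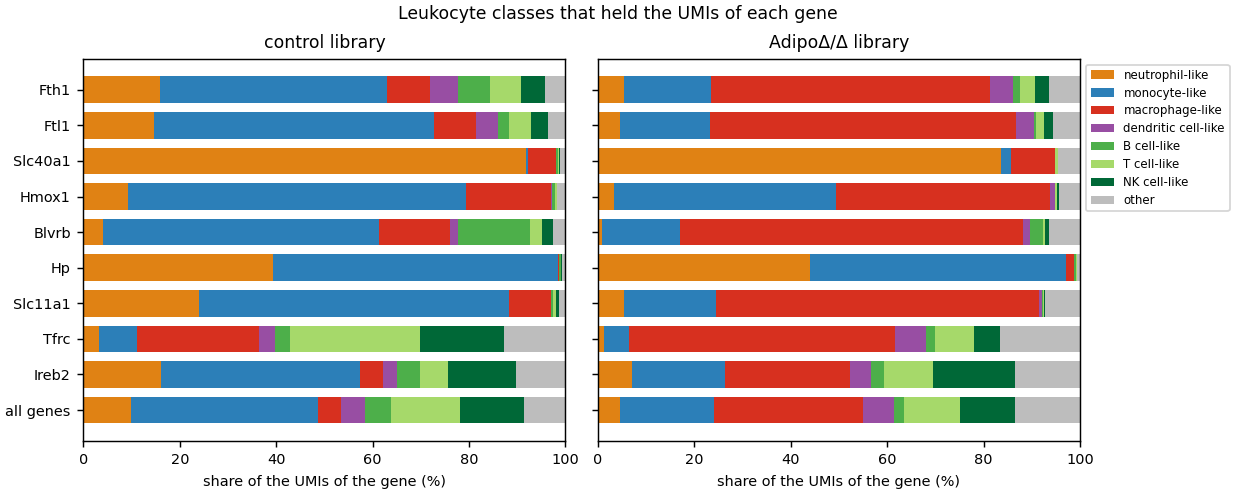
Share of the UMIs of each member (horizontal axis, percent) held by each leukocyte class in the control (left) and AdipoΔ/Δ (right) library, with all genes as the bottom bar. *Slc40a1* lay mainly in neutrophil-like cells (91.8% and 83.6%). Macrophage-like cells held 9.01% of the *Fth1* UMIs in control and 57.7% in AdipoΔ/Δ mice, beside 4.95% and 30.8% of all UMIs.

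Both ferritin chains were highest in lipid-associated macrophages. *Fth1* (ENSMUSG00000024661, chromosome 19, 9980598 to 9985098, plus strand on GRCm38) encodes the heavy chain, which oxidizes iron as it enters the shell. In AdipoΔ/Δ mice it reached 14225 CPM (14013 to 14439) in the 97 lipid-associated cells, 6139 CPM (5979 to 6301) in M2-like cells and 2801 CPM (2713 to 2892) in matrix cells. Lymphocytes were at the other end, with 1133 CPM (1076 to 1193) in T cell-like and 1000.1 CPM (947 to 1056) in NK cell-like cells, and these 2 intervals did not overlap. In control mice, M2-like cells held 3617 CPM (3374 to 3873) and neutrophil-like cells 3591 CPM (3478 to 3707), which overlapped. The 12 control lipid-associated cells held 24064 CPM (22290.0 to 25941) and are described with the comparison of macrophages.

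*Ftl1* (ENSMUSG00000050708, chromosome 7, 45457944 to 45459884, minus strand) encodes the light chain, which favours the iron core. It was 17798 CPM (17561 to 18038) in AdipoΔ/Δ lipid-associated macrophages, 5378 CPM (5229 to 5530.2) in M2-like macrophages, 4630.2 CPM (4505 to 4758) in Ly6C high monocytes and 4181 CPM (4009 to 4359.6) in neutrophil-like cells. B cell-like cells held 901 CPM (784 to 1031), against 3039 CPM (2820.2 to 3270.0) of *Fth1*, so the classes were not in the same order for both chains. A processed copy, *Ftl1-ps1*, had 345 control and 488 AdipoΔ/Δ UMIs, against 21688 and 48129 of *Ftl1*, and reads shared with such copies could be assigned to either.

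**Figure D2:**
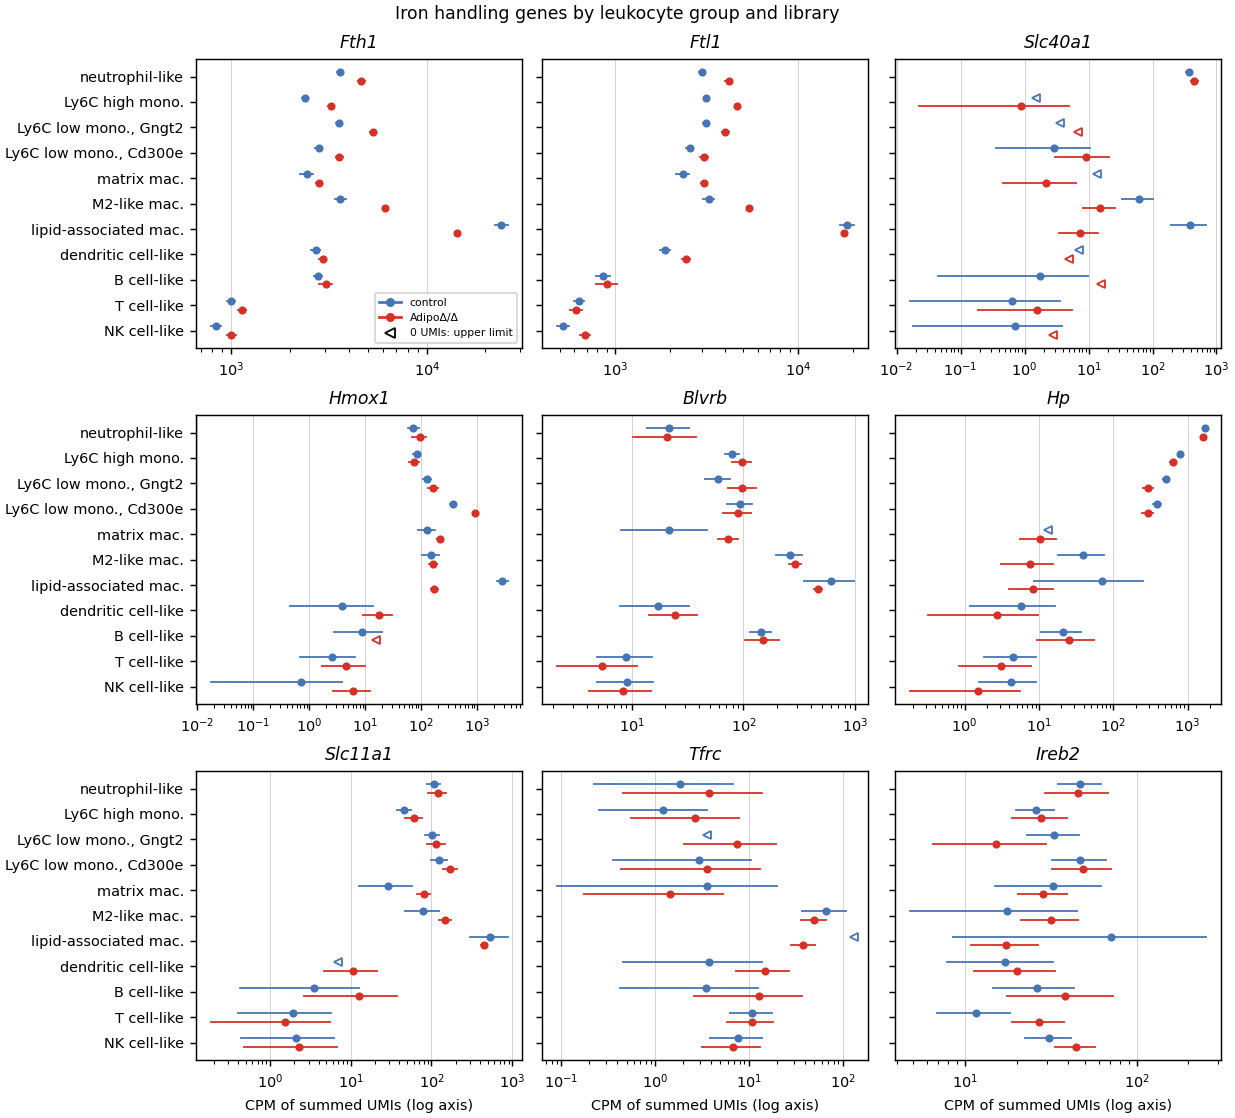
Level of each member (horizontal log axis, CPM of summed UMIs) in 11 leukocyte groups of the control (blue) and AdipoΔ/Δ (red) library. Lines are exact 95% Poisson intervals and open triangles mark groups at 0 UMIs, placed at the upper limit. Ferritin peaked in lipid-associated macrophages and *Hp* in neutrophil-like cells. *Slc40a1* was highest in neutrophil-like cells in AdipoΔ/Δ mice, and in control mice neutrophil-like cells (369.5 CPM) and the 12 lipid-associated cells (389 CPM, 11 UMIs) overlapped.

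The balance of the chains differed between cell types. Because each UMI is 1 captured transcript end, the ratio of *Fth1* to *Ftl1* UMIs carries no gene length, but capture may differ between the genes, so only its variation between cell types is read. B cell-like cells held 3.22 (2.91 to 3.57) *Fth1* UMIs for each *Ftl1* UMI in control and 3.37 (2.89 to 3.95) in AdipoΔ/Δ mice. T cell-like cells followed with 1.57 (1.44 to 1.70) and 1.85 (1.70 to 2.02). Ly6C high monocytes had far lower ratios in both libraries, with 0.761 (0.735 to 0.788) and 0.699 (0.670 to 0.730), and the Ly6C low cells led by *Gngt2* lay above them, at 1.13 (1.08 to 1.19) and 1.32 (1.25 to 1.40). Lipid-associated macrophages were at 0.799 (0.783 to 0.815) in AdipoΔ/Δ mice and 1.31 (1.16 to 1.47) in the 12 control cells, whereas M2-like macrophages held 1.11 (1.01 to 1.23) in control and 1.14 (1.10 to 1.19) in AdipoΔ/Δ mice. The smallest ratios, 0.296 (0.219 to 0.396) and 0.462 (0.352 to 0.601), belonged to plasma cell-like cells, of which there were 13 and 8.

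**Figure D3:**
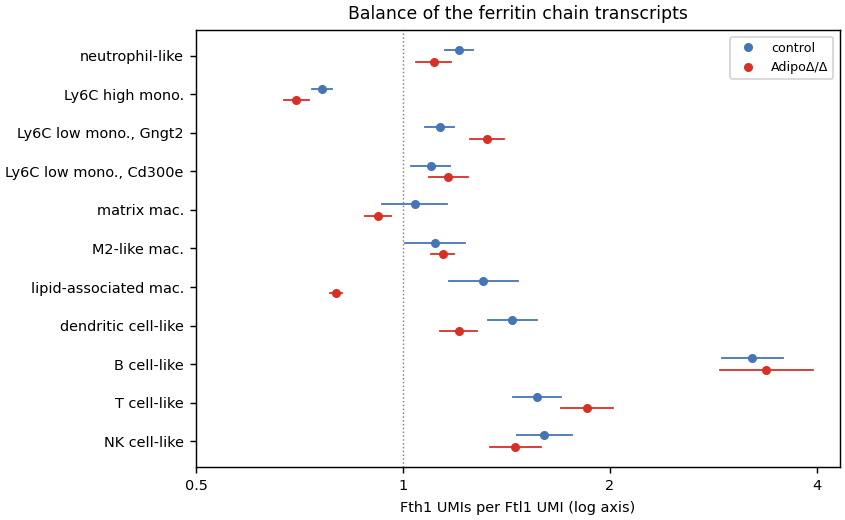
UMIs of *Fth1* for each UMI of *Ftl1* (horizontal log axis) by leukocyte group, with exact 95% binomial intervals, in control (blue) and AdipoΔ/Δ (red) mice. B cell-like cells stood at 3.22 and 3.37, Ly6C high monocytes at 0.761 and 0.699.

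The iron exporter was mainly a transcript of neutrophil-like cells. *Slc40a1* (ENSMUSG00000025993, chromosome 1, 45908068 to 45926523, minus strand) stood at 369.5 CPM (334 to 408) in control and 453 CPM (397 to 514) in AdipoΔ/Δ neutrophil-like cells. At least 1 UMI was found in 61.1% (55.5 to 66.6) of 314 control and 68.8% (61.3 to 75.6) of 173 AdipoΔ/Δ cells, at median depths of 2968.5 and 2720.0 UMIs. In T cell-like cells, which served as background at median depths of 3492 and 3753 UMIs, the shares were 0.281% and 0.830%. After each cell was thinned to 1000 UMIs, leaving out 21 and 16 shallower cells, 34.8% and 38.9% of neutrophil-like cells held a UMI and none of 324 and 218 T cell-like cells did, for which the upper bounds are 1.13% and 1.68%. The libraries stood close in this class, with a CPM ratio of AdipoΔ/Δ over control of 1.23 (1.04 to 1.44), and 35.7% and 35.3% of cells held 2 or more UMIs.

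Within neutrophil-like cells, a small set in the control library lacked this pattern. *Ltf* (lactoferrin, an iron-binding granule protein of maturing neutrophils) lay in 7 control cells and in none of the 173 AdipoΔ/Δ cells. These 7 cells had 24.4 CPM (2.95 to 88.1) of *Slc40a1*, from 2 UMIs, and 866 CPM (676 to 1092) of *Fth1*. The other 307 control cells had 398 CPM (359.9 to 439.8) and 3819 CPM (3697 to 3943). *Hp* was 1573 CPM (1313 to 1869) in these 7 cells and 1727 CPM (1646 to 1811) in the rest, so that in these sums the difference was seen in ferroportin and *Fth1* and not in haptoglobin. A single cell gave 34 of the 71 *Fth1* UMIs of the 7 cells, and 6 of them held any. The 7 cells were singled out after their values were seen.

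Outside neutrophils *Slc40a1* was sparse. M2-like macrophages held 61.5 CPM (33.6 to 103) in control and 15.3 CPM (8.34 to 25.6) in AdipoΔ/Δ mice, from 14 UMIs in each. Lipid-associated macrophages held 389 CPM (194 to 695) in control, from 11 UMIs in 2 of the 12 cells, and 7.47 CPM (3.42 to 14.2) in AdipoΔ/Δ mice, from 9 UMIs. The unnamed cluster led by *Col3a1* held 9.27 CPM (0.235 to 51.6) and 24.5 CPM (11.2 to 46.5), from 1 and 9 UMIs. It was at 0 UMIs in control and 3 UMIs in AdipoΔ/Δ matrix macrophages. Ly6C high monocytes held 0 of 2442810 and 1 of 1120040 UMIs. The genes whose levels were most like *Slc40a1* over 28 group and library sums, by Pearson's r of log2(CPM + 10), were *Cstdc4* (0.95), *Mmp9* (0.93) and *Gm16556* (0.93). The sums share libraries and differ in depth, so r is given here and below as a description.

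Haptoglobin followed a gradient along the myeloid clusters. *Hp* (ENSMUSG00000031722, chromosome 8, 109575128 to 109579172, minus strand) was 1715 CPM (1638 to 1796) in control neutrophil-like cells, 802 CPM (766 to 838) in Ly6C high monocytes, 507 CPM (464 to 552) in Ly6C low monocytes led by *Gngt2* and 391 CPM (346 to 441) in those led by *Cd300e*. All macrophage-like cells together held 20.7 CPM (10.3 to 37.0), from 11 UMIs. The AdipoΔ/Δ library had the same first steps, with 1613 CPM (1506 to 1725), 633 CPM (587 to 681), 296 CPM (251 to 346) and 291 CPM (247 to 339). Intervals of its Ly6C low clusters overlapped. A UMI of *Hp* was found in 91.7% and 91.3% of neutrophil-like cells and in 1.40% and 1.24% of T cell-like cells. Its nearest genes were *Gsr* (0.95), *Msrb1* (0.94) and *Svip* (0.94).

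Between libraries, *Hp* was lower in monocytes of AdipoΔ/Δ mice and differed little in neutrophils. The ratio was 0.940 (0.866 to 1.02) in neutrophil-like cells, 0.790 (0.724 to 0.861) in Ly6C high, 0.742 (0.606 to 0.907) in Ly6C low monocytes led by *Cd300e* and 0.583 (0.485 to 0.698) in those led by *Gngt2*. Thinned to 1000 UMIs, 47.1% of control and 36.3% of AdipoΔ/Δ Ly6C high cells held a UMI. Over all kept cells the level was 432 against 171 CPM. Neutrophil-like cells were 314 of 2279 kept cells in control and 173 of 2016 in AdipoΔ/Δ mice. They held 9.92% and 4.66% of all UMIs, and monocyte-like cells 38.7% and 19.5%. The level over all cells mixes such shares with the levels within classes given above, and the part of each was not computed.

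*Hmox1* (ENSMUSG00000005413, chromosome 8, 75093621 to 75100589, plus strand), the enzyme that opens the haem ring, was found in monocyte-like, macrophage-like and neutrophil-like cells. Among the monocyte clusters it was highest in the Ly6C low cells led by *Cd300e*. In the Ly6C low cluster led by *Cd300e* it was 377 CPM (332 to 426) in control and 913 CPM (835 to 997) in AdipoΔ/Δ mice. In the one led by *Gngt2* it was 129 CPM (108 to 153) and 164 CPM (131 to 202), and in Ly6C high monocytes 83.1 CPM (72.1 to 95.4) and 75.9 CPM (60.6 to 93.8). The AdipoΔ/Δ excess thus lay in 1 of the 3 monocyte clusters, with a ratio of 2.42 (2.08 to 2.83). T cell-like cells had 2.57 and 4.63 CPM.

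Few cells carried these UMIs. Of the cells led by *Cd300e*, 10 of 224 in control (4.46%, 2.16 to 8.06) and 17 of 221 in AdipoΔ/Δ mice (7.69%, 4.54 to 12.0) held 5 or more *Hmox1* UMIs. They accounted for 75.5% and 80.7% of the *Hmox1* UMIs of the cluster. The highest cell held 61 UMIs in control and 93 in AdipoΔ/Δ mice. Without these cells, which were picked by the same measure in both libraries, the cluster stood at 97.6 and 196 CPM. The intervals of the 2 shares of cells overlapped.

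Matrix macrophages also held such cells in AdipoΔ/Δ mice, where 14 of 174 AdipoΔ/Δ cells (8.05%, 4.47 to 13.1) and 0 of 49 control cells (upper bound 7.25%) held 5 or more *Hmox1* UMIs. The cluster stood at 127 CPM (88.3 to 176) in control and 218 CPM (194 to 244) in AdipoΔ/Δ mice. The 14 cells held 157 of the 297 AdipoΔ/Δ UMIs, 59 of them in a single cell. The median depth was 3998 UMIs in control and 5990.5 UMIs in AdipoΔ/Δ matrix cells, and the intervals of the shares of cells overlapped. Neutrophil-like cells, at 73.2 CPM (57.8 to 91.3) and 94.8 CPM (70.3 to 125), had no cell above 4 UMIs.

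In the cluster led by *Cd300e*, the cells with 5 or more *Hmox1* UMIs, summed together, also held more ferritin, but unevenly from cell to cell. *Fth1* was 7649 CPM (6778 to 8602) in these control cells and 2128 CPM (1996 to 2266) in cells of the same cluster without *Hmox1*. In AdipoΔ/Δ mice the values were 12131 CPM (11228 to 13088) and 2510.3 CPM (2332 to 2699). Cells with 1 to 4 *Hmox1* UMIs had 3469 CPM (3210 to 3745) in control and 2782 CPM (2558 to 3020) in AdipoΔ/Δ mice. Single AdipoΔ/Δ cells among the 17 gave 168, 120 and 99 of their 667 *Fth1* UMIs, while others held only 3 or 4. *Spic*, a transcription factor known from iron-recycling macrophages of the spleen, was 274 CPM (131 to 504) against 13.2 CPM (4.83 to 28.6) in control and 637 CPM (443 to 885) against 30.9 CPM (14.1 to 58.7) in AdipoΔ/Δ mice, and 8 of the 17 AdipoΔ/Δ cells held it. The cells with 168, 120 and 99 *Fth1* UMIs held 10, 6 and 10 of the 35 *Spic* UMIs. *Slc40a1* was at 0 UMIs in the 10 control cells and 5 UMIs in 2 AdipoΔ/Δ cells. In control, *Blvrb* was 109.7 CPM (29.9 to 281) against 85.5 CPM (60.8 to 117). The haem transporter *Slc48a1* was 82.3 CPM (17.0 to 240) against 37.3 CPM (21.7 to 59.7), so both overlapped. In AdipoΔ/Δ mice *Blvrb* was 273 CPM (153 to 450) against 75.5 CPM (47.3 to 114). *Slc48a1* was 218 CPM (113 to 381) against 37.8 CPM (18.9 to 67.6). *Gclm*, *Txnrd1* and *Prdx1*, genes of the glutathione and thioredoxin systems picked after their values were seen, were at 109.7, 192 and 795 CPM in these control cells and 4.39, 76.8 and 437 CPM in control cells without *Hmox1*. They were at 509, 509 and 6438 CPM in these AdipoΔ/Δ cells and 3.43, 37.8 and 522 CPM in the cells without *Hmox1*. In the control cells *Gclm* rested on 4 UMIs in 2 cells and *Txnrd1* on 7 UMIs in 4 cells. The control *Txnrd1* intervals, 77.2 to 395 and 53.5 to 107 CPM, overlapped. In AdipoΔ/Δ mice *Gclm* and *Txnrd1* each lay in 8 of the 17 cells. Haemoglobin was at 4 UMIs in the 10 control and 0 UMIs in the 17 AdipoΔ/Δ cells. The median depth was 3408.5 and 2657.0 UMIs in these cells, against 2163.0 and 1698.0 UMIs in those without *Hmox1*, and whether depth adds to the contrast was not tested.

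**Figure D4:**
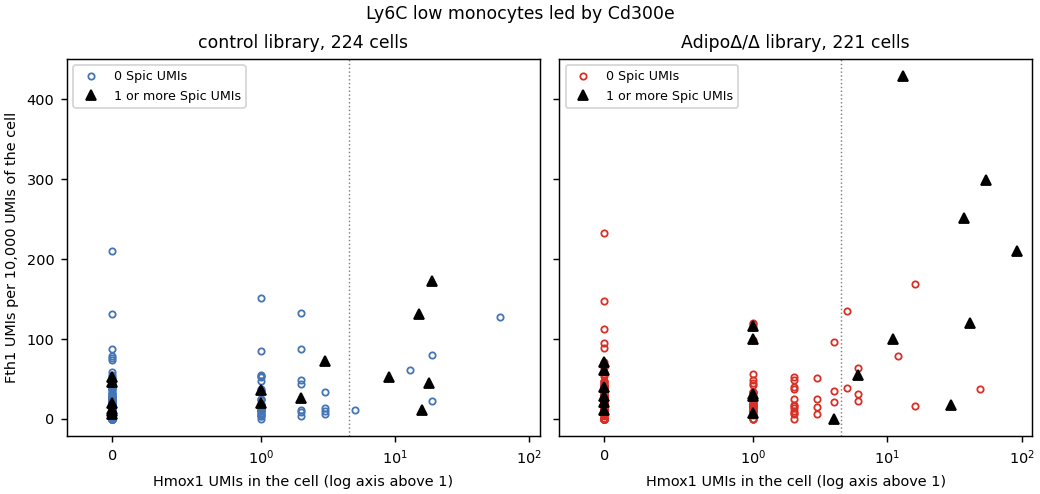
Each point is a cell of the Ly6C low cluster led by *Cd300e* in the control (left) or AdipoΔ/Δ (right) library, with its *Hmox1* UMIs (horizontal axis, log above 1) and its *Fth1* UMIs for each 10000 UMIs (vertical axis). Triangles mark cells with a *Spic* UMI, and the dotted line separates the 10 control and 17 AdipoΔ/Δ cells with 5 or more *Hmox1* UMIs.

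*Blvrb* (ENSMUSG00000040466, chromosome 7, 27447978 to 27466144, plus strand), which reduces biliverdin, was highest in lipid-associated macrophages, at 601 CPM (349.9 to 962) in control and 461 CPM (423 to 501) in AdipoΔ/Δ mice. M2-like macrophages followed at 259 CPM (197 to 334) and 289 CPM (255 to 326), and matrix macrophages were lower at 21.7 CPM (7.97 to 47.3) and 73.3 CPM (59.7 to 89.2). Unlike *Hmox1*, it was also present in B cell-like cells, at 143 CPM (114 to 177) and 149 CPM (104 to 207), where *Hmox1* had 5 and 0 UMIs. Leaving out the B cell-like cells with 3 or more haemoglobin UMIs gave 145 and 152 CPM. T cell-like cells, at a higher median depth, had 9.01 and 5.40 CPM. Neutrophil-like cells, rich in *Hp* and *Slc40a1*, held only 21.6 and 20.9 CPM.

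*Slc11a1* (ENSMUSG00000026177, chromosome 1, 74375195 to 74386062, plus strand) encodes NRAMP1, which moves iron and other divalent metals out of the phagosome. It was found mainly in monocyte-like, macrophage-like and neutrophil-like cells, which held 302, 41 and 113 of its 470 control UMIs and 223, 781 and 63 of its 1167 AdipoΔ/Δ UMIs. AdipoΔ/Δ lipid-associated macrophages held 444 CPM (407 to 483), the Ly6C low cluster led by *Cd300e* 171 CPM (138 to 209), M2-like macrophages 148 CPM (124 to 175) and neutrophil-like cells 119 CPM (91.8 to 153), the last 3 of which overlapped. In the control library the levels in the same clusters were 530.0, 125, 79.0 and 106 CPM. T cell-like, B cell-like, NK cell-like and dendritic cell-like cells each held between 0 and 8 UMIs in a library. Over the 28 sums its level ran with that of *Hmox1* (r = 0.90) and *Ftl1* (r = 0.90).

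The transferrin receptor was a low transcript. *Tfrc* (ENSMUSG00000022797, chromosome 16, 32608920 to 32632794, plus strand) had 63 UMIs in all control and 169 in all AdipoΔ/Δ cells. M2-like macrophages were highest with 65.8 CPM (36.9 to 109) and 49.0 CPM (35.8 to 65.6), and AdipoΔ/Δ lipid-associated macrophages held 38.2 CPM (27.9 to 50.9). Matrix macrophages held 1 and 2 UMIs, or 3.62 CPM (0.0917 to 20.2) and 1.47 CPM (0.178 to 5.30), so that among AdipoΔ/Δ macrophages the M2-like and lipid-associated clusters overlapped each other and lay above the matrix cluster. In monocyte-like cells it was 1.20 CPM (0.391 to 2.81) and 4.09 CPM (1.87 to 7.76), from 5 and 9 UMIs.

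*Ireb2* (ENSMUSG00000032293, chromosome 9, 54863789 to 54912530, plus strand) encodes iron regulatory protein 2, which is itself controlled by degradation. Its level lay between 11.6 CPM in T cell-like and 46.9 CPM in neutrophil-like control cells among the classes of at least 50 cells, and most intervals overlapped. In AdipoΔ/Δ mice it lay between 20.2 CPM in dendritic cell-like and 45.5 CPM in neutrophil-like cells. T cell-like cells held 11.6 CPM (6.86 to 18.3) in control and 27.0 CPM (18.8 to 37.6) in AdipoΔ/Δ mice.

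For macrophage-like cells the comparison of libraries asked whether iron handling genes differ when adipocytes lose ATGL. A member counted as higher or lower when its CPM ratio of AdipoΔ/Δ over control was past 1.5-fold, with at least 50 UMIs over both libraries. Of 8 members with enough UMIs, 4 were higher, namely *Slc11a1* with a ratio of 2.91 (2.12 to 4.08), *Ftl1* with 2.44 (2.33 to 2.56), *Fth1* with 1.87 (1.79 to 1.95) and *Blvrb* with 1.71 (1.37 to 2.17). Of all genes with enough UMIs in this class, 19.4% were higher by the same rule. *Slc40a1* was lower, at 0.159 (0.0881 to 0.287), from 25 and 26 UMIs, beside 8.53% of all genes. *Hmox1* lay just inside the limit, at 0.671 (0.561 to 0.807), but its direction turned with the mitochondrial limit, to 1.06 at 5% and 2.11 at the study's 2%. The median log2 ratio was 0.32 over the 8 members and 0.13 over all genes counted.

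These ratios depended on which macrophages each library held. Lipid-associated cells were 9.60% of control and 23.8% of AdipoΔ/Δ macrophage-like cells, and they carried 31.3% and 64.5% of the *Fth1* UMIs of the class. With both libraries weighted to the same shares of the clusters, 0 of the 8 members were higher, beside 25.4% of all genes, and 3 were lower (*Slc40a1*, *Hmox1* and *Ireb2*), beside 7.98%. The ratios of the 4 became 0.771 for *Fth1*, 1.09 for *Ftl1*, 1.07 for *Slc11a1* and 0.950 for *Blvrb*. This weighting rests on the 12 control lipid-associated cells. Without the lipid-associated cluster, an alternative chosen after seeing the data, 1 of 7 members was higher, *Slc11a1* at 2.09, beside 15.6% of all genes, and 1 was lower, *Tfrc* at 0.649, beside 4.27%. *Fth1* then stood at 1.40.

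Within single clusters, the 2 better filled ones pointed the same way for ferritin. In M2-like macrophages (64 control and 136 AdipoΔ/Δ cells), 3 of 6 members were higher, beside 17.4% of all genes. They were *Slc11a1* with a ratio of 1.88 (1.14 to 3.26), *Fth1* with 1.70 (1.58 to 1.83) and *Ftl1* with 1.66 (1.53 to 1.79), while *Blvrb* was at 1.11 (0.838 to 1.50), and 0 were lower beside 5.04%. In matrix macrophages (49 and 174 cells), 3 of 5 members were higher, beside 18.4% of all genes, namely *Blvrb* with 3.38 (1.50 to 9.42), *Slc11a1* with 2.78 (1.36 to 6.61) and *Hmox1* with 1.72 (1.21 to 2.51), and 0 were lower beside 4.72%. Ferritin stayed under the fold there, at 1.15 (1.06 to 1.25) for *Fth1* and 1.30 (1.20 to 1.41) for *Ftl1*. The median depth was 2681 UMIs in control and 5847 UMIs in AdipoΔ/Δ M2-like cells. With each cell thinned to 1000 UMIs, 2 of the 4 members of the whole class, *Ftl1* and *Slc11a1*, stayed past the fold. The unnamed shallow cluster led by *Col3a1*, whose best marker list was that of macrophages, had 3 of 4 members higher, namely *Slc11a1*, *Ftl1* and *Fth1*, beside 25.9% of all genes, and 0 lower beside 14.1%.

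The lipid-associated cluster went the other way. *Fth1* was 0.591 (0.548 to 0.639) and *Hmox1* 0.0616 (0.0474 to 0.0808) times the control level, which made 2 of 5 members lower beside 17.4% of all genes, and 0 were higher beside 40.2%. The 12 control cells held 28300 UMIs in all, with a median depth of 1321 UMIs against 11722 UMIs in the 97 AdipoΔ/Δ cells. A single cell of 8709 UMIs gave 252 of their 681 *Fth1* UMIs. A pair of others, of 4671 and 4135 UMIs, held 76 of the 80 *Hmox1* and all 11 *Slc40a1* UMIs, with 36 and 49 UMIs of *Pf4*, 2 and 9 of *Ppbp* (both platelet genes, *Pf4* also of M2-like macrophages) and 0 of *Gpnmb*, a defining gene of the cluster. Without this pair *Hmox1* was 205 CPM in control, a ratio of 0.849 (0.327 to 3.15), and *Fth1* was 21545 CPM, a ratio of 0.660 (0.599 to 0.729). For all macrophage-like cells the *Slc40a1* ratio without the pair was 0.279 (0.140 to 0.578), with under 50 UMIs left, and that of *Hmox1* was 1.35 (1.06 to 1.74), on the other side of 1.

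Red cell transcripts were lower in the library whose macrophages held more ferritin. The 9 red cell genes summed to 71.4 CPM in control and 13.2 CPM in AdipoΔ/Δ macrophage-like cells, and of these *Alas2*, the enzyme of haem synthesis in red cell precursors, was at 0 in both. Taking haemoglobin UMIs out of the totals, or leaving out cells with 3 or more of them, left the same 4 members past the fold upwards. This step could hardly change a ratio, because macrophage-like cells held only 32 control and 22 AdipoΔ/Δ haemoglobin UMIs. Only 1 control cell of the class was left out. Whether red cell material bears on the ferritin level was not tested. A list of 8 adipocyte genes stood at 131 and 132 CPM. It includes *Fabp4*, which the paper plots as expressed by BAT macrophages and monocytes, so the sum need not measure adipocyte RNA.

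**Figure D5:**
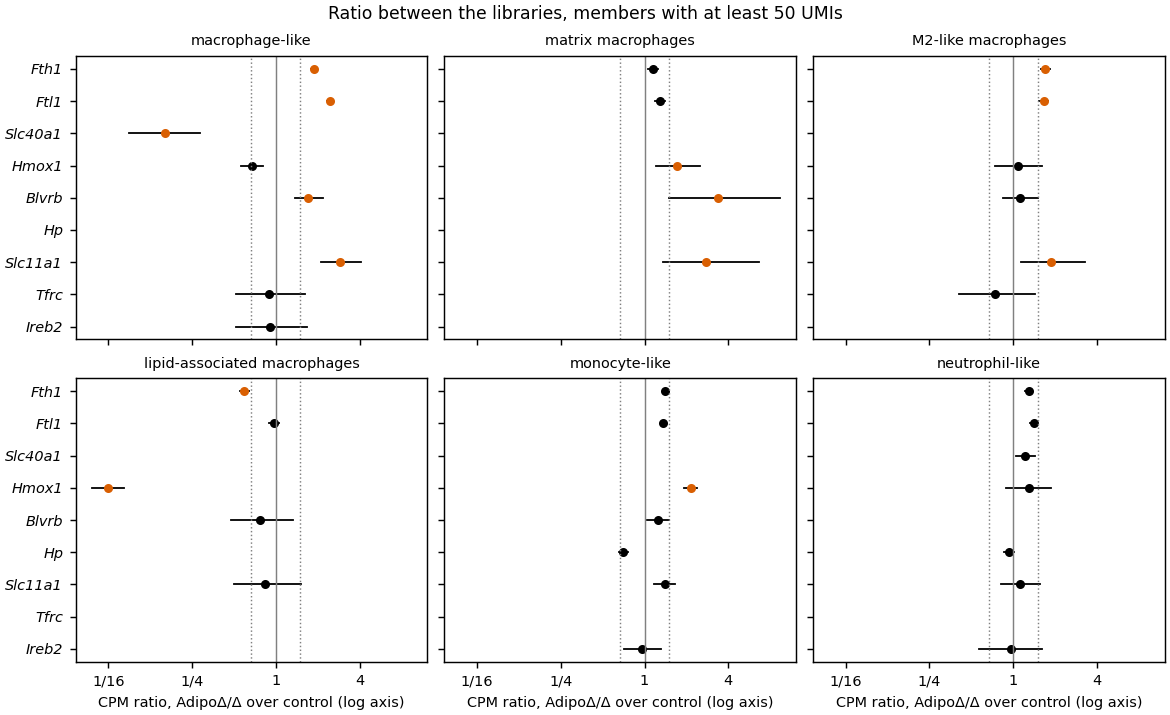
CPM ratio of AdipoΔ/Δ over control (horizontal log axis) for members with at least 50 UMIs over both libraries, with exact 95% intervals for counting error. Dotted lines mark 1.5-fold and orange points are past it. In all macrophage-like cells 4 members lay above the upper line, in the lipid-associated cluster none did, and in neutrophil-like cells all 7 lay between the lines.

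In monocyte-like cells, 1 of 7 members was higher, *Hmox1* with a ratio of 2.15 (1.92 to 2.40), beside 7.31% of all genes, and 0 were lower beside 2.36%. Ferritin was just under the fold, at 1.40 (1.36 to 1.44) for *Fth1* and 1.35 (1.31 to 1.39) for *Ftl1*, and its ratio was above 1 in all 3 clusters. In the cluster led by *Gngt2*, *Fth1* was 3540.3 CPM (3426 to 3657) and 5295 CPM (5101 to 5494), a ratio of 1.50 (1.42 to 1.57), just under the fold. There 1 of 6 members was higher, *Blvrb* at 1.66 (1.12 to 2.44), beside 8.29% of all genes, and 1 was lower, *Hp*, beside 8.43%. In the cluster led by *Cd300e*, 1 of 7 was higher, *Hmox1*, beside 8.45%, and 0 were lower beside 2.87%. In Ly6C high monocytes 0 of 7 were past the fold, beside 7.96% of all genes higher and 3.36% lower. Over all monocyte-like cells the median log2 ratio of the 7 members was 0.43, against 0.10 for all genes counted. Merging the libraries without integration regrouped the monocytes, and *Fth1* and *Ftl1* then stood at 1.11 and 1.05.

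In neutrophil-like cells none of 7 members was past 1.5-fold, beside 21.5% of all genes higher and 3.36% lower, and the largest ratio was 1.40 (1.33 to 1.48), of *Ftl1*. The median log2 ratio was 0.29 for the members and 0.27 for all genes counted. In T cell-like cells, 3 members had enough UMIs and *Ireb2* was higher, at 2.33 (1.29 to 4.37), from 18 and 35 UMIs, beside 17.0% of all genes, while 0 were lower beside 2.58%. *Fth1* and *Ftl1* stood at 1.14 (1.06 to 1.23) and 0.966 (0.879 to 1.06) there.

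A wider list of 46 genes of iron and haem metabolism was read by the same rule, with the same shares of all genes as given above. In macrophage-like cells 29 had enough UMIs, of which 5 were higher and 4 lower. Those higher included *Blvra*, the second biliverdin reductase (30.1 to 118 CPM, ratio 3.93, 2.39 to 6.94), *Nfs1*, which supplies the sulfur of iron-sulfur clusters, and the haem synthesis enzymes *Urod* and *Cpox*, and the last 3 of these had 6 or fewer control UMIs each. Those lower were *Cd163*, the receptor for haptoglobin-bound haemoglobin (169 to 86.0 CPM, ratio 0.509, 0.401 to 0.651), the ferroxidase *Cp*, *Fbxl5*, whose product marks iron regulatory protein 2 for degradation (ratio 0.512, 0.340 to 0.792), and the mitochondrial iron importer *Slc25a37*. Within the macrophage clusters, only *Fbxl5* and *Slc25a37* of these 4 were called lower, both in matrix macrophages. M2-like cells were 51.2% of control and 33.4% of AdipoΔ/Δ macrophage-like cells. How far the make-up of the class enters the ratios of this list was not tested. The median log2 ratio of the 29 was 0.13, near that of all genes.

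In monocyte-like cells 3 of 27 genes of the wider list were higher and 0 lower. These were *Spic* (12.5 to 34.1 CPM, ratio 2.72, 1.89 to 3.96), *Slc11a2*, the iron carrier of endosomes (ratio 2.08, 1.22 to 3.57), and *Slc25a37* (ratio 1.50, 1.00 to 2.24). Of the AdipoΔ/Δ *Spic* UMIs, 35 lay in 8 of the 17 cells led by *Cd300e* with 5 or more *Hmox1* UMIs, so few cells weigh on its ratio. In neutrophil-like cells the iron chaperone *Pcbp1* was higher (ratio 1.66, 1.20 to 2.28), and 2 of 13 genes were lower. They were *Lcn2*, which captures iron-laden siderophores, at 3895 against 1213 CPM, and *Ltf*, at 868 CPM against 0 UMIs (upper limit 6.99 CPM). All 925 control UMIs of *Ltf* lay in 7 of 314 cells, so no size of the fold is given. The 7 control cells with *Ltf* also held 1775 of the 4153 *Lcn2* UMIs. Without them *Lcn2* was 2416 CPM (2320.2 to 2515) in control, still above 1213 CPM (1121 to 1311) in AdipoΔ/Δ mice. In T cell-like cells *Blvra*, *Ncoa4*, which carries ferritin to degradation, and *Cpox* were higher and *Slc11a2* lower, of 12, with ratios of 1.57 (0.914 to 2.72), 1.88 (1.08 to 3.32), 1.80 (1.07 to 3.08) and 0.648 (0.357 to 1.15).

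By group of that list, the highest class was the same in both libraries for 6 of 7 groups. Uptake genes and the iron regulatory system were highest in neutrophil-like cells, each mainly through 1 gene. *Lcn2* gave 4153 of 5402 control and 640 of 817 AdipoΔ/Δ uptake UMIs there, and *Fbxl5* gave 749 of 750 and 263 of 266 of the other group. Macrophage-like cells came second for uptake, at 759 and 682 CPM, and the rank without *Lcn2* was not computed. Haem transport was highest in macrophage-like cells, led by *Slc48a1*, which moves haem out of the phagolysosome. Haem breakdown and its control, led by *Nfe2l2*, and mitochondrial iron and haem synthesis, led by *Iscu*, were highest in monocyte-like cells. The export and hepcidin group was highest in dendritic cell-like cells through *Hfe*. Storage chaperones, led by *Pcbp2*, were highest in monocyte-like cells in control and in dividing cells in AdipoΔ/Δ mice, a class with 18 control cells, which was not ranked in control.

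Likeness over the 28 sums was computed for members with at least 500 UMIs. For *Fth1* the nearest genes were *Ftl1* (0.91), *Atp6v0c* (0.88), a proton pump subunit, and *Gabarap* (0.86). For *Ftl1* they were *Cd68* (0.93), a marker of macrophage lysosomes, *Atp6v0c* (0.93) and *Creg1* (0.93). *Hmox1* was nearest to *Degs1* (0.92), *Csf1r* (0.92) and *Sirpa* (0.92), of which the second is the receptor of macrophage colony-stimulating factor. *Slc11a1* was nearest to *Pla2g7* (0.92), *Cd300lb* (0.92) and *Creg1* (0.91), *Blvrb* to *Apoe* (0.81), *Myo5a* (0.80) and *Lgmn* (0.80), and *Ireb2* to *Ptbp3* (0.84), *Rc3h2* (0.76) and *Ppp4r3b* (0.76). The number in parentheses is r over 28 sums, out of 7899 genes compared, and *Tfrc* had too few UMIs for this measure.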

How the data were processed

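The authors sequenced 10x Genomics 3′ (v3.1) libraries of CD45+ BAT cells and deposited raw UMI counts for each gene and barcode, made with Cell Ranger (4.0.0 in the file header) on mm10, without normalization. Depth was 11327187 UMIs in 2597 control barcodes and 12028844 UMIs in 2381 AdipoΔ/Δ barcodes. A barcode was kept when it had 200 or more genes and no more than 10% of its UMIs from mitochondria (87.8% and 84.7%). The study's limit of 2% was an alternative, since 51.4% and 37.7% of barcodes met it.

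Libraries were normalized with sctransform 0.4.2 and integrated by anchors in Seurat 5.3.0 (R 4.3.3), on 1976 features left after 24 iron and red cell genes were removed, with 20 principal components at resolution 1.0. The 18 clusters were named from marker lists (3 or more markers, each in 10% or more of the cells, with a minimum score of 0.5). A cluster led by *Col3a1* (78 control and 223 AdipoΔ/Δ cells) stayed unnamed because of its depth, one led by *Ccl1* because of its score and one led by *Mcpt4* because it lacked detected markers. Scrublet (Scanpy 1.11.5, expected rate 0.02) called 8 and 6 barcodes, which were not removed.

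CPM is the summed count of a group scaled to its total UMIs. Intervals are Poisson for sums, Clopper-Pearson for shares and conditional binomial for ratios (SciPy 1.17.1). Only the ratio intervals were tested on simulated data. Those data were Poisson counts, so the test does not cover UMIs concentrated in a few cells. No test between conditions was run. Thinned shares drew 1000 UMIs from each cell. All 9 members are named. Genes of the wider list are named when past 1.5-fold with at least 50 UMIs, and for members with at least 500 UMIs the 3 most similar genes of at least 200 UMIs. The members and lists were chosen with earlier results of these data known. Coordinates are GRCm38 (GENCODE M21), matched by Ensembl identifier for 32158 of 32285 features, and no protein sequences were used. Some genes of the lists are not reported here.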

Additional observations from a re-analysis of the deposited data

How the results depend on the processing

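Results were recomputed under up to 14 alternatives set at the outset, of which the weighting of clusters applied to macrophage-like cells only and the minimum of UMIs to counts of members only, and 4 chosen after seeing the data, all on macrophage-like cells. No paired analysis was possible because each condition has 1 library. The 4 macrophage-like members past 1.5-fold upwards became 2 after thinning to 1000 UMIs and with the mean of per-cell CPM, 1 without the lipid-associated cluster, and 0 with the clusters weighted to equal shares, with or without the pair of control cells rich in *Hmox1*. It was 5 at the mitochondrial limit of 2%, where *Hmox1* was added. The 1 member past the fold downwards became 0 with mitochondrial limits of 5% and 2%, after thinning and without that pair. It became 2 with at least 500 detected genes, with iron genes among the clustering features, at resolution 2.0, without integration, without a minimum of UMIs and with the shallow unnamed cluster counted in, and 3 with weighting. Where it stayed 1, the gene was *Hmox1* without the highest doublet scores, *Tfrc* without the lipid-associated cluster and *Ireb2* with weighting without the pair. *Slc40a1* stood below 1 wherever it had a ratio, from 0.0551 with weighting to 0.429 with weighting without the pair. Weighting turned the direction of *Fth1* (0.771, and 0.841 without the pair) and *Blvrb* (0.950 and 0.883), and of *Slc11a1* (0.831 without the pair only). In monocyte-like cells the 1 member upwards became 2 after thinning, which added *Slc11a1*, and 3 without a minimum of UMIs. In neutrophil-like cells 0 became 1 without the minimum. In T cell-like cells 1 upwards became 0 at mitochondrial limits of 5% and 2%, after thinning and at resolution 0.5, where *Ireb2* had under 50 UMIs, and 3 without the minimum, which also made 1 lower. The class with the highest level was kept by 5 of 9 members in control at the limit of 2%. Ratios of *Slc40a1* with 0 UMIs in a group were left out. With 1 library a condition, depth limits the members under 100 UMIs, *Tfrc* above all, and the spread between mice is not known.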
